A study of Mesocricetus auratus with 6 samples.

Results

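The suprachiasmatic nucleus (SCN) neuropeptides are the secreted peptides through which SCN neurons signal to each other and to the rest of the brain. The genes were chosen by name, as 10 peptide genes known from the SCN. Of these, 7 (*Nms*, *Prok2*, *Gal*, *Cck*, *Sst*, *Penk* and *Tac1*) were analysed among 31593 genes, and the other 3 (*Avp*, *Vip* and *Grp*) were not analysed here. The rule is a list of names and uses no measured value.

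The SCN is a paired cell group above the optic chiasm that holds the central circadian clock of mammals. Its neurons share the transmitter GABA but are told apart by their peptides, which are cut from larger precursors, stored in dense-core vesicles and sensed by G protein-coupled receptors on target cells. In cortex several of the same peptides are made by inhibitory interneurons, so a peptide gene need not be particular to the clock.

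RNA was sequenced from cortex, SCN and liver of *duper* and wild type Syrian hamsters, the 3 tissues of a genotype coming from the same animals. The data were analysed as 1 library for each of the 6 combinations of genotype and tissue. *duper* is a recessive loss-of-function mutation of the clock repressor gene *Cry1*, carried here in descendants of animals crossed to the LVG stock and without the *tau* mutation. The wild type animals were of the LVG stock. Hamsters of both genotypes were kept in 14 h of light and 10 h of dark, and tissue was taken at circadian time 15, in the early subjective night. Ages were not given in the sources used here. For cortex and SCN the tissue of 4 hamsters per genotype went into 1 library, and for liver the reads of 4 hamsters were merged, so no value carries a spread between animals. The *duper* hamsters were all female and the wild type hamsters were of both sexes. The paper also describes the *duper* line as bred independently of the wild type stock. An effect of genotype therefore cannot be told apart from one of sex or of breeding line.

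The total estimated count per library was between 6788947 in wild type cortex and 85748562 in *duper* liver, with 29936218 in wild type SCN and 7248840 in *duper* SCN. The mutated gene *Cry1* was lower in *duper* in each tissue, at 33.3 against 8.56 TPM (a transcript's share of all transcripts, per length) in cortex, 22.9 against 8.14 TPM in SCN and 16.8 against 5.44 TPM in liver. Its log2 fold change of *duper* over wild type was −1.69 (SE 0.18), with a Benjamini-Hochberg adjusted p of 0.0437 in the quasi-likelihood fit of edgeR. The SCN label was checked against 11 marker genes, of which 10 passed the filter on low counts and 7 were called higher in SCN than in cortex, none lower. Among all genes tested 3.77% were called higher and 6.8% lower. Of the 7, *Six6* and *Lhx1* passed that filter only through the SCN libraries, so a difference was built into their being tested, and the other 5 did not need them. The transcription factor gene *Six3* was among those 5, with a log2 fold change of 2.12 (SE 0.29). *Six6* had 8.79 and 6.005 TPM in wild type and *duper* SCN, against 0.310 and 0.204 TPM in cortex. All 6 markers of cortical excitatory neurons were called lower in SCN. The vesicular glutamate transporter *Slc17a7* had 767 and 669 TPM in wild type and *duper* cortex, against 8.61 and 3.65 TPM in SCN.

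Which peptide genes were expressed at this time, and where, was read from TPM, a level per transcript length that can be set side by side between genes. In wild type SCN the order from high to low was *Sst*, *Penk*, *Gal*, *Cck*, *Tac1*, *Nms* and *Prok2*. In *duper* SCN it was the same except that *Tac1* came before *Cck*. In cortex of both genotypes it was *Cck*, *Sst*, *Penk*, *Tac1*, *Gal*, *Prok2* and *Nms*. The 7 genes summed to 562 TPM in wild type SCN and 637 in *duper* SCN, to 1497 and 1116 in cortex, and to 1.07 and 1.54 in liver. With 1 library for each genotype and tissue, only counting error can be set against the distance between neighbours in these orders.

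*Nms* encodes neuromedin S, a peptide named for the SCN that acts on the receptors *Nmur1* and *Nmur2*. It was measured at 33.5 TPM (94 counts) in wild type SCN and 13.4 TPM (9 counts) in *duper* SCN, and at 0 counts in both cortex and both liver libraries. The SCN was thus the only tissue of the 3 with a count of *Nms*. A count of 0 allows up to 3 counts, which is 0.353 and 0.229 CPM (counts scaled by TMM to a common library size) in wild type and *duper* cortex. *Prok2* encodes prokineticin 2, a proposed output signal of the SCN that acts on *Prokr2* and whose messenger RNA in the SCN of nocturnal rodents is known to be high by day and low by night. It was measured at 0.529 and 0.237 TPM (11 and 1 counts) in wild type and *duper* SCN, 0.563 and 0.476 TPM (2 and 3 counts) in cortex and 0.231 and 0.805 TPM (13 and 56 counts) in liver. Under 1 TPM in every library, *Prok2* did not pass the filter on low counts and has no test, and the levels in its 3 tissues overlapped.

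*Gal* encodes galanin, an inhibitory peptide made by several hypothalamic cell groups. It was at 100.9 and 95.3 TPM in wild type and *duper* SCN (835 and 187 counts), 1.22 and 9.09 TPM in cortex (2 and 23 counts) and 0.799 and 0.716 TPM in liver. Both SCN libraries lay above all the others. *Cck*, the cholecystokinin gene, which cortical neurons express strongly, had the reverse order: 741 and 603 TPM in cortex, 71.3 and 41.3 TPM in SCN, and 0 counts in liver. In cortex it was among the highest of all genes, at rank 132 in wild type and 202 in *duper*.

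*Sst* encodes somatostatin, an inhibitory peptide of cortical interneurons and of hypothalamic neurons. Its levels were 506 and 414 TPM in wild type and *duper* cortex, 197 and 273 TPM in SCN, and 0 counts in liver, so every cortex library lay above every SCN library. *Penk*, the precursor of the enkephalin opioid peptides, was at 203 and 64.9 TPM in cortex, 112 and 148 TPM in SCN, and 0.0418 and 0.0168 TPM (2 and 1 counts) in liver. The cortex values of *Penk* enclosed the SCN values. *Tac1*, the precursor of substance P and neurokinin A, was at 45.6 and 24.0 TPM in cortex, 47.5 and 65.6 TPM in SCN, and 0 counts in liver. The SCN libraries lay above the cortex libraries, but wild type SCN exceeded wild type cortex by only 0.06 on the log2(TPM + 1) scale.

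**Figure D1:**
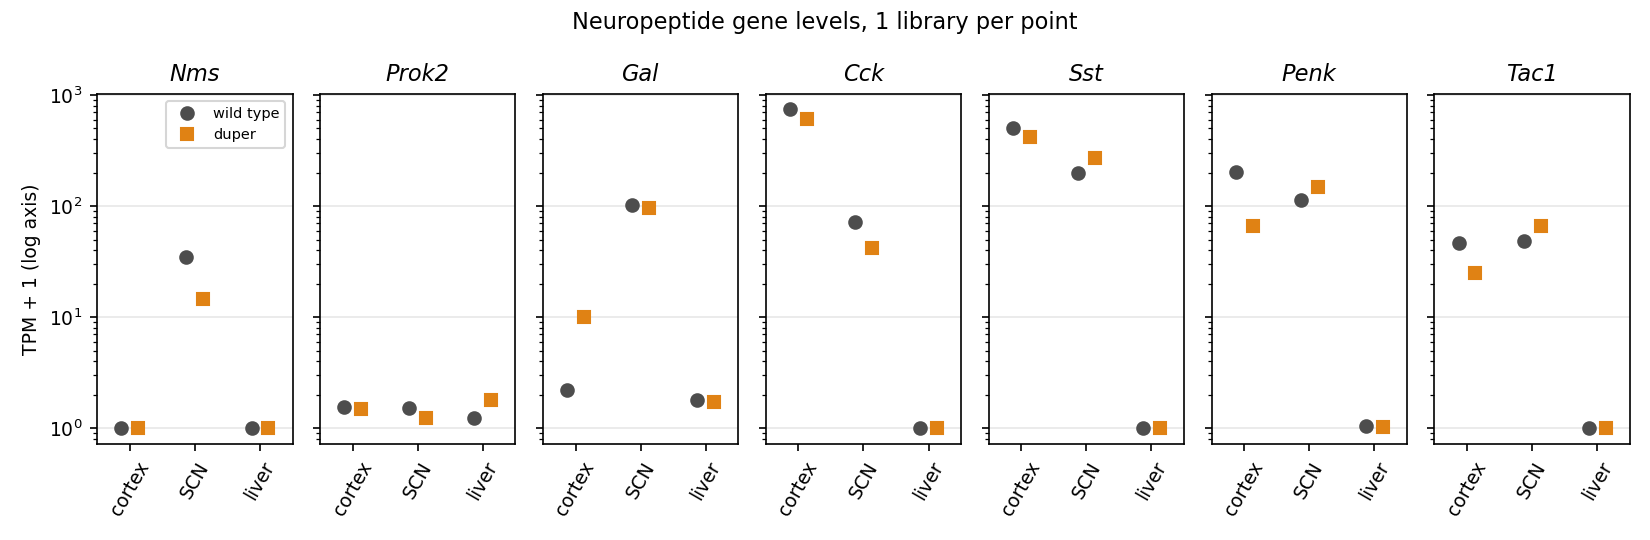
Level of each analysed peptide gene as TPM + 1 on a log axis, by tissue, with 1 point per library (grey circles wild type, orange squares *duper*) and no error bars because each group is 1 library. *Nms* rose above 0 TPM only in SCN, *Gal* was near 100 TPM in both SCN libraries, and *Cck* and *Sst* were higher in both cortex libraries than in either SCN library.

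Transcripts were examined where a gene had more than 1. *Prok2* had 3, of 1346, 1575 and 1535 bases, on too few counts to compare. Its single counted transcript was the one of 1346 bases in wild type cortex and *duper* SCN (2 and 1 counts) and the one of 1535 bases in *duper* cortex and wild type SCN (3 and 11 counts). *Cck* had 2, and the transcript of 555 bases held between 78.5% and 81.9% of the gene's TPM in the 4 brain libraries. *Tac1* also had 2, of 1184 and 1133 bases. The longer one held 63.5% of the TPM in wild type cortex, 48.1% in *duper* cortex, 36.9% in wild type SCN and 47.1% in *duper* SCN. The estimate of kallisto divides reads that fit both transcripts, and no replicate gives these shares an error.

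The comparison of SCN with cortex asks which of these peptide genes set the clock nucleus apart from another brain region. *Gal* was higher in SCN, with a log2 fold change of 4.22 (SE 0.58, adjusted p = 0.00512), and *Cck* was lower, at −3.58 (SE 0.21, adjusted p = 0.000541). *Sst* was lower by a smaller amount, at −0.98 (SE 0.21, adjusted p = 0.0397). *Tac1* (0.73, SE 0.38, adjusted p = 0.297) and *Penk* (0.15, SE 0.43, adjusted p = 0.881) did not pass the test. *Nms* had 103 counts over the 2 SCN libraries and 0 over the 2 cortex libraries, at least 14.1-fold higher in SCN when 3 counts are taken as the limit of a 0, but its adjusted p was 0.0629. These values are from edgeR's quasi-likelihood test over all 6 libraries with tissue and genotype as terms, in which the 2 genotypes stand in for replicates of a tissue. A gene was called where the adjusted p was below 0.05 and the log2 fold change exceeded 0.58 in either direction. In bulk RNA, fewer cells of a type and less RNA per cell cannot be told apart.

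Of the 6 peptide genes tested, 1 was thus called higher in SCN and 2 lower. Of all 19780 genes tested, 3.77% were called higher and 6.8% lower. The median log2 fold change was 0.44 over the 6 genes, also with *Nms* at its bound, and 0.03 over all genes. *Nms* and *Gal* passed the filter on low counts only through the SCN libraries, so a difference was built into their being tested. Both enter the median of the 6 genes, and nothing is read from that median. No support is drawn from the call for *Gal* beyond its levels above. The call for *Nms* depended on the fit, since it was made under 7 other settings, and its fitted fold change is no bound because cortex had no count. When a library was left out, the log2 fold change of *Gal* lay between 3.40 (without wild type cortex) and 6.34 (without *duper* cortex), which adds no support to its call. That of *Tac1* then lay between 0.05 and 1.44. The call for *Sst* was lost with library size in place of TMM scaling (adjusted p = 0.0564, edgeR's quasi-likelihood test). By limma on log2(TPM + 0.1) it was lost too (adjusted p = 0.0552). It was also lost without *duper* cortex, without wild type cortex and without wild type SCN. The log2 fold change of *Sst* was then −1.35, −0.62 and −0.61.

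Within each genotype, where 1 library is set against another and no test is possible, the log2 ratio of TPM + 1 between SCN and cortex was close for *Cck*, at −3.36 in wild type and −3.84 in *duper*. For *Gal* it was 5.52 in wild type and 3.25 in *duper*, both far above 0. *Penk* did not keep its direction. It was lower in wild type SCN than in wild type cortex, at −0.85 (exact 95% interval for counting error of the TPM ratio −0.98 to −0.73), and higher in *duper* SCN than in *duper* cortex, at 1.18 (1.00 to 1.38). *Tac1* was at 0.06 (−0.21 to 0.33) in wild type and 1.41 (1.11 to 1.79) in *duper*. *Sst* was at −1.36 (−1.49 to −1.23) and −0.60 (−0.77 to −0.44). Estimated counts are not independent molecules, so these intervals cover counting error only.

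**Figure D2:**
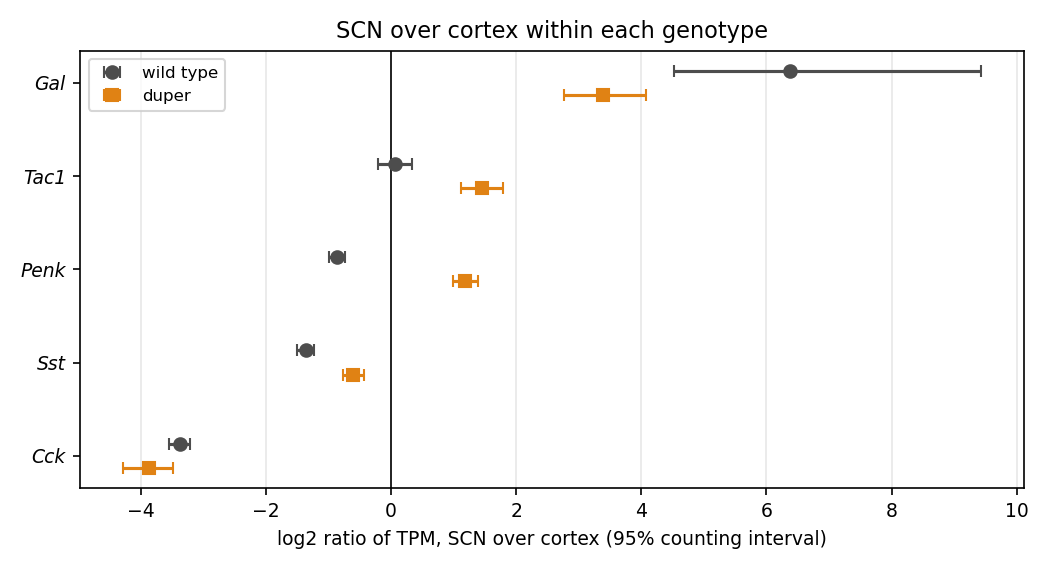
Log2 ratio of TPM, SCN over cortex, without a pseudocount, for the 5 peptide genes with counts in both tissues, by genotype (grey circles wild type, orange squares *duper*), with exact 95% counting intervals as bars. *Gal* lay above 0 and *Cck* and *Sst* below 0 in both genotypes, while *Penk* lay on opposite sides of 0. *Nms*, with 0 counts in cortex, and *Prok2*, with at most 11 counts in a brain library, are not drawn.

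Against liver, all 6 peptide genes tested were called higher in SCN and none lower, where 31.5% of all genes tested were called higher and 32.1% lower. None of the 6 reached the filter's minimum in a liver library, so each was tested only through brain libraries (*Nms* and *Gal* only through those of SCN), and nothing is read from the count of 6. *Nms*, *Cck*, *Sst* and *Tac1* had 0 counts in both liver libraries and were at least 56.9-fold, 269.7-fold, 1014-fold and 513-fold higher in SCN. *Penk* had 3 counts in liver and a ratio of 1429-fold (95% counting interval 488 to 6935). *Gal* was the peptide gene with the most liver counts among those called, 18 and 20, and its log2 fold change was 5.46 (SE 0.57, adjusted p = 0.000108, edgeR's quasi-likelihood test). This comparison and that with cortex share the SCN libraries. Scaling by library size in place of TMM moved the median log2 fold change of all genes by 1.32 against liver and by 0.16 against cortex, and the direction of each of the 6 genes held under it.

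The receptors of all 10 peptides were followed as a list of 26 genes, of which 23 passed the filter on low counts. Against cortex 6 were called higher in SCN, 8 lower and 9 were not called, with a median log2 fold change of −0.09. For all genes tested the shares were 3.77% higher and 6.8% lower. Of the 23 receptors, 5 passed the filter only through the SCN libraries, so the counts and the median include built-in differences. The receptors higher in SCN were *Cckar*, *Vipr2*, *Galr1*, *Grpr*, *Tacr1* and *Oprm1*. Of these, *Cckar* and *Grpr* passed the filter only through the SCN libraries, so a difference was built into their being tested, and the other 4 did not need them. *Cckar*, the cholecystokinin receptor known mainly from the gut, had 10.4 and 7.46 TPM in wild type and *duper* SCN and 1 count over both cortex libraries, a ratio of 326-fold (95% counting interval 58.4 to 12908). *Vipr2*, the receptor of vasoactive intestinal peptide that marks SCN neurons, was measured in SCN at 12.5 and 6.32 TPM, against 0.467 and 0.186 TPM in cortex, a log2 fold change of 4.92 (SE 0.59, adjusted p = 0.00314). *Galr1*, a galanin receptor, was at 11.8 and 17.4 TPM in SCN, against 0.735 and 2.13 TPM in cortex, 3.30 on the log2 scale (SE 0.41, adjusted p = 0.00354).

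For several peptides 1 receptor was higher in SCN and another lower, by edgeR's quasi-likelihood test. *Cckbr*, the main cholecystokinin receptor of the brain, was lower by contrast with *Cckar*, at −2.60 (SE 0.33, adjusted p = 0.00366). *Vipr1* was lower by contrast with *Vipr2*, at −5.84 (SE 0.20, adjusted p = 0.000191), with 29.0 and 26.1 TPM in cortex and 0.510 and 0.407 TPM in SCN. Of the opioid receptors that bind enkephalins, *Oprm1* was higher (2.52, SE 0.31, adjusted p = 0.00331) and *Oprd1* lower (−2.84, SE 0.52, adjusted p = 0.0161). Of the tachykinin receptors, the substance P receptor *Tacr1* was higher (2.69, SE 0.28, adjusted p = 0.00185) and *Tacr3* lower (−2.08, SE 0.28, adjusted p = 0.00499). Of the 5 somatostatin receptors, *Sstr1*, *Sstr2* and *Sstr3* were lower, with log2 fold changes from −1.91 to −1.33. *Nmur2*, the neuromedin receptor of the brain, reached 0.604 and 1.02 TPM in SCN, with 0 counts in cortex, and was not called (adjusted p = 0.0943).

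**Figure D3:**
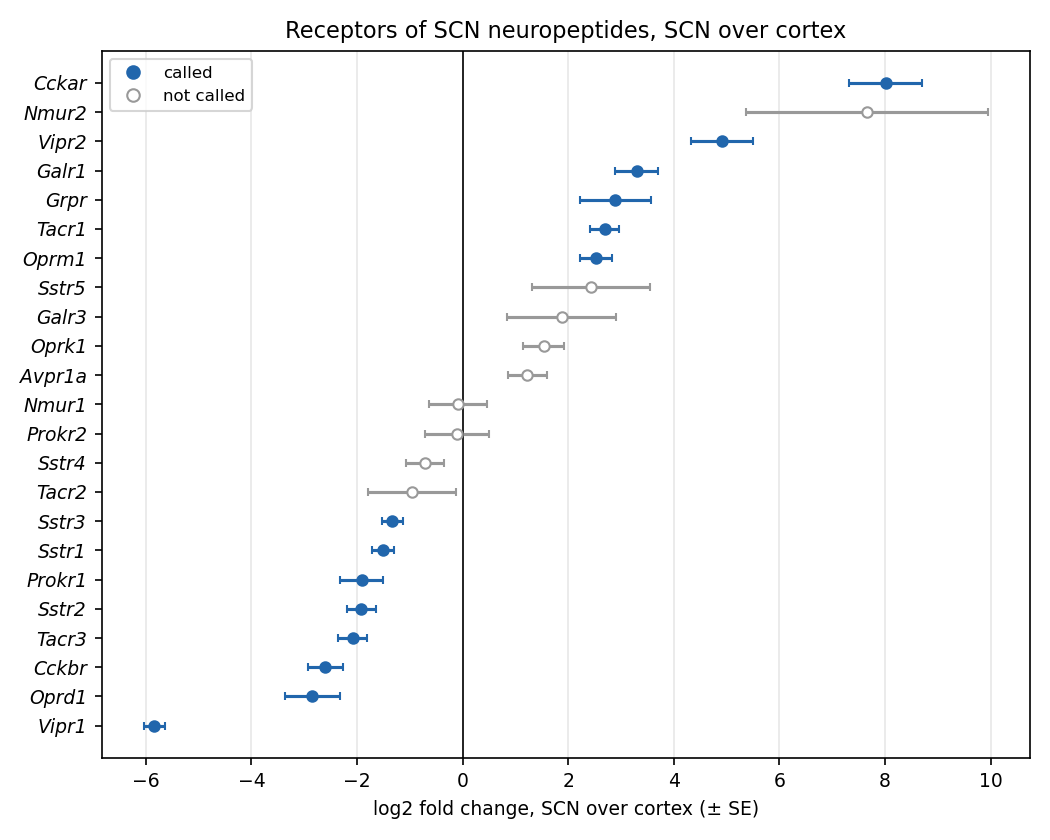
Log2 fold change of SCN over cortex (points) with its SE (bars) for the 23 receptor genes tested, from edgeR's quasi-likelihood fit, filled where called and open where not. The called genes run from *Vipr1* at −5.84 to *Cckar* at 8.01, with 6 above 0 and 8 below.

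Genes that cut and store peptide precursors were measured in SCN and cortex alike. Of the 13 tested of 14 listed, 2 were called higher in SCN, 2 lower and 9 were not called, with a median log2 fold change of −0.07. Among all genes tested 3.77% were called higher and 6.8% lower. The dense-core vesicle protein gene *Scg2* was higher, at 1.87 (SE 0.44, adjusted p = 0.0409, edgeR's quasi-likelihood test), with 748 and 827 TPM in wild type and *duper* SCN against 221 and 207 TPM in cortex. *Qpct*, which closes the amino end of some peptides, was also higher (1.70, SE 0.31). The precursor protease gene *Pcsk2* was lower, at −1.91 (SE 0.21, adjusted p = 0.00227), as was the granin gene *Chgb* (−1.15, SE 0.18). The other main protease gene, *Pcsk1*, was at 40.4 and 53.5 TPM in SCN, at 45.9 and 60.5 TPM in cortex, and was not called (−0.17, SE 0.15). Against liver 10 of the 13 were called higher in SCN and 1 lower, *Furin*, which most cells use. The shares of all genes tested were 31.5% higher and 32.1% lower. *Pcsk1*, *Pcsk2*, *Pcsk1n*, *Chga*, *Chgb*, *Scg3* and *Vgf* reached the filter's minimum in no liver library. A difference from liver was thus built into their being tested, and nothing is read from the count of 10.

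Other peptide genes, among them those of neighbouring hypothalamic groups, were present in the SCN libraries as well. Of 10 tested, 4 were called higher in SCN than in cortex (*Pmch*, *Pdyn*, *Cartpt* and *Nts*), 1 lower (*Npy*) and 5 were not called. Among all genes tested 3.77% were called higher and 6.8% lower. *Pmch* passed the filter only through the SCN libraries, so its difference was built into its being tested, which was not so for the other 3. *Pmch*, the melanin-concentrating hormone gene of the lateral hypothalamus, had 58.2 TPM in wild type SCN and 11.4 TPM in *duper* SCN. *Pdyn*, the dynorphin precursor, had 108 and 148 TPM, a log2 fold change over cortex of 3.40 (SE 0.41, adjusted p = 0.00336, edgeR's quasi-likelihood test). In wild type SCN *Pdyn* thus lay close to *Gal* and *Penk*. The part of neighbouring cells in the SCN values of the peptide genes was not tested.

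The genes most like *Nms* and *Prok2* over the 6 libraries were found by the Euclidean distance of log2(TPM + 1) among 15837 genes. For *Nms* they were *Pmch* (distance 1.09), the transcription factor gene *Lhx5* (1.52) and *Cckar* (1.77). For *Prok2*, at its low level, they were *Pbk* (0.385), *Ccnb1* (0.427) and *Prr15l* (0.435). The same search was extended to the other peptide genes after their values were seen. The nearest gene was *Ecel1* for *Gal* (1.99), *Ddn* for *Cck* (1.25), *Camk2b* for *Sst* (0.425), *Vgf* for *Penk* (0.877) and *Htr2c* for *Tac1* (0.648). *Pmch* shares with *Nms* a lower value in the *duper* SCN library, but that value entered the distance, so nothing is read from it. *Lhx5*, also among the nearest genes, had 14.0 TPM in wild type SCN and 16.5 TPM in *duper* SCN.

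The comparison of genotypes asks whether loss of *Cry1* went with a change in peptide gene expression. Across the 3 tissues none of the 6 peptide genes tested was called by edgeR's quasi-likelihood test, where 0.0202% of all genes tested were called higher in *duper* and 0.0556% lower. DESeq2, limma and edgeR's likelihood ratio test also called 0 of them. The unadjusted p was under 0.05 for 1, *Cck*, with a log2 fold change of −0.53 (SE 0.19, unadjusted p = 0.0332, adjusted p = 1, edgeR). The others were *Nms* (−1.25, SE 1.09), *Penk* (−0.63, SE 0.42), *Tac1* (−0.21, SE 0.38), *Sst* (0.08, SE 0.21) and *Gal* (0.39, SE 0.46). *Nms* had 0 counts in cortex and liver, so its value rests on the SCN libraries alone. *Cck*, *Sst* and *Tac1* had 0 counts in liver, so their values rest on cortex and SCN. The sizes of these errors leave room for changes in either direction. None of the 23 receptor genes, 13 processing genes or 10 other peptide genes tested was called either.

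Within SCN the ratio of *duper* over wild type rests on 1 library of each, without a test. *Nms* was lower in *duper*, with a log2 ratio of TPM + 1 of −1.26 (95% counting interval of the TPM ratio −2.49 to −0.33), on 9 counts against 94. Under 3 other scalings or pseudocounts the *Nms* ratio lay between −1.31 and −0.77. *Cck* was also lower, at −0.77 (−1.21 to −0.39). *Sst* (0.47, 0.31 to 0.63), *Tac1* (0.46, 0.24 to 0.68) and *Penk* (0.40, 0.27 to 0.54) were higher in *duper*. *Gal* was at −0.08 (−0.32 to 0.15), an interval that holds 0. *Prok2*, at −0.31, had too few counts to fix a direction. Of the 6 genes that averaged 1 TPM or more, 0 exceeded a log2 ratio of 0.58 upward and 2 downward. Among all genes 6.67% did so upward and 7.7% downward, with a median of 0.02.

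Other lists differed between the same SCN libraries. The 11 SCN markers summed to 172 and 140 TPM in wild type and *duper*. Of the 11, 8 were lower in *duper*, with a median log2 ratio of −0.26, against 0.02 for all genes. The share of all genes that were lower by any amount is not given, so nothing is read from the count of 8. Past a log2 ratio of 0.58, 2 of the 11 were lower and 1 higher, against 7.7% and 6.67% of all genes. The 2 were the receptors *Prokr2*, at 8.42 and 1.37 TPM (208 and 8 counts), and *Vipr2*, at 12.5 and 6.32 TPM. The pituitary hormone subunit gene *Cga* had 1 count in wild type and 82 in *duper*. Genes of the arcuate and lateral hypothalamus went both ways. *Pmch* and *Hcrt* were lower in *duper* (*Hcrt* with 14 and 0 counts), whereas *Kiss1* (1.89 and 15.3 TPM), *Pomc* (6.17 and 17.4 TPM) and *Npy* (6.99 and 17.0 TPM) were higher. Of the choroid plexus and ependymal genes, *Ttr* had 165 and 24.1 TPM, while *Kl* (1.23 and 1.26 TPM) and *Foxj1* (8.62 and 7.49 TPM) were close between the libraries. The 3 oligodendrocyte markers summed to 3363 and 2912 TPM. The 6 cortical excitatory markers summed to 22.6 and 17.0 TPM. Of the 4 that averaged 1 TPM or more, 3 were lower in *duper* and 1 higher, with a median log2 ratio of −0.65. *Slc17a7* had 8.61 and 3.65 TPM, and *Tbr1* had 7.66 and 10.6 TPM. Of the cortical interneuron markers other than *Sst* itself and *Npy*, *Lhx6* had 16.8 and 22.7 TPM and *Pvalb* 18.8 and 14.96 TPM. The part of these differences in the peptide ratios was not tested, and the extent of the dissection and the genotype cannot be told apart with 1 library each.

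Within cortex *Penk* was lower in *duper*, at −1.63 (95% counting interval −1.83 to −1.45), as was *Tac1*, at −0.90 (−1.30 to −0.55). *Cck* (−0.30, −0.43 to −0.17) and *Sst* (−0.29, −0.43 to −0.15) were lower by less. *Gal* was higher, at 2.19, on 23 counts against 2, with an interval of 0.89 to 6.03. The *Gal* ratio was 1.16 on TMM-normalised CPM and 2.81 with a pseudocount of 0.1. Of the 5 peptide genes that averaged 1 TPM or more, 1 exceeded 0.58 upward and 2 downward, against 8.24% and 7.75% of all genes. *Penk* and *Tac1* are also the main peptide genes of striatal output neurons. A list of 10 striatal markers, chosen after these values were seen, summed to 451 TPM in wild type cortex and 179 TPM in *duper* cortex. Of the 10, 9 were lower in *duper* and the median log2 ratio was −1.65, with *Drd1* at 22.4 and 5.74 TPM and *Adora2a* at 19.4 and 2.49 TPM. In SCN the same list summed to 157 and 124 TPM, with a median of −0.03. Whether striatal tissue in the wild type cortex library had a part in the *Penk* and *Tac1* ratios was not tested.

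**Figure D4:**
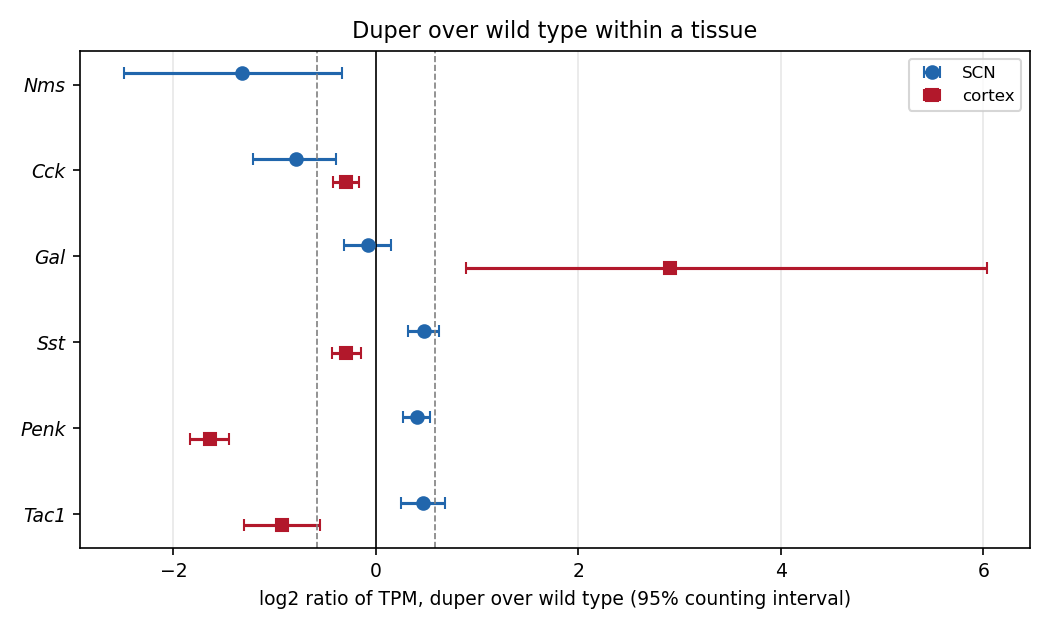
Log2 ratio of TPM, *duper* over wild type, without a pseudocount, in SCN (blue circles) and cortex (red squares), with exact 95% counting intervals as bars and dashed lines at 0.58 either way. *Sst*, *Penk* and *Tac1* lay above 0 in SCN and below 0 in cortex. Each point compares 1 library with 1 library.

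**Figure D5:**
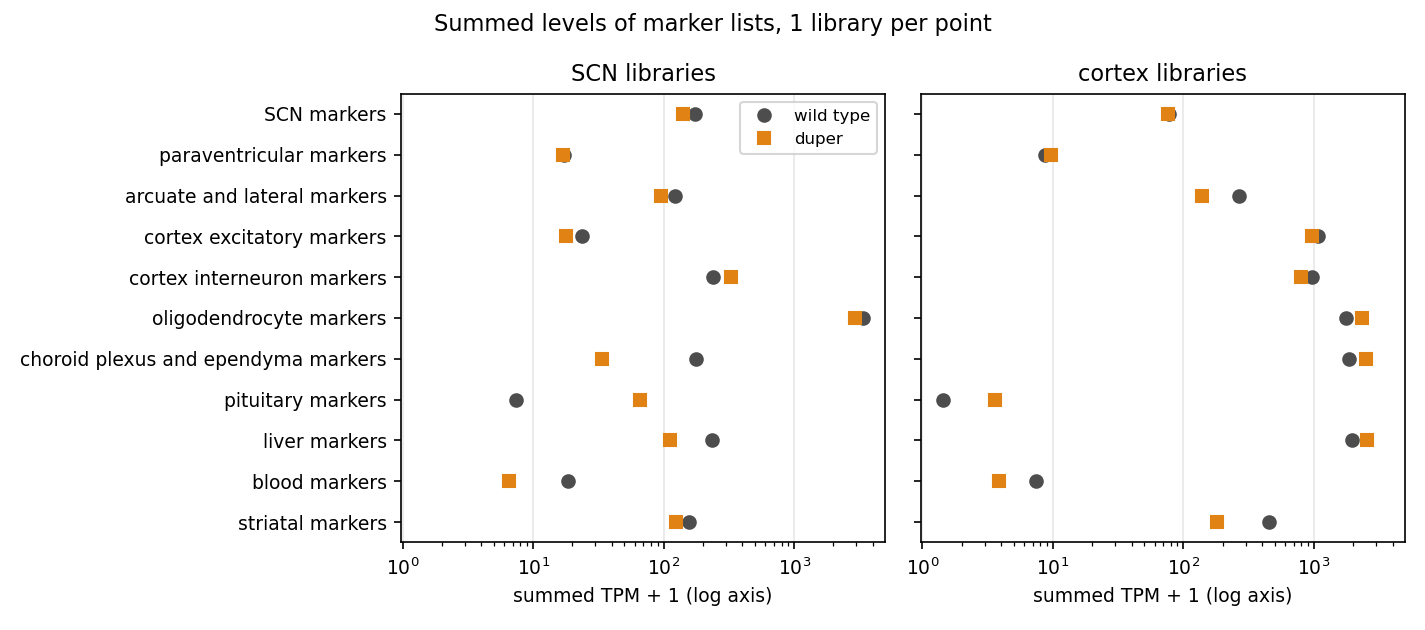
Summed level of each marker list as TPM + 1 on a log axis in the SCN libraries (left) and the cortex libraries (right), by genotype (grey circles wild type, orange squares *duper*), 1 library per point. In SCN the pituitary list stood at 6.34 and 65.3 TPM in wild type and *duper*, and in cortex the striatal list stood at 451 and 179 TPM.

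In liver the only peptide genes with more than 3 counts were *Gal* and *Prok2*. *Gal* differed little, at −0.07 (95% counting interval −1.15 to 0.84). *Prok2* had 13 counts in wild type and 56 in *duper*, a log2 ratio of TPM + 1 of 0.55, or 1.80 without the pseudocount (0.91 to 2.80). Both values stayed under 1 TPM.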

How the data were processed

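The authors quantified stranded, poly(A)-selected RNA reads with kallisto (version not given in the sources used here) and deposited gene tables of estimated counts and of TPM, together with 1 transcript table per library of 67818 transcripts. Of 31593 gene symbols, 31590 matched RefSeq's BCM_Maur_2.0 annotation. Estimated counts were rounded to whole numbers and tested with edgeR 4.0.16 (R 4.3.3) in 1 model with tissue and genotype as terms, with TMM scaling, filterByExpr (minimum count 10, total 15) and the quasi-likelihood test, with p-values adjusted over 19780 genes by the method of Benjamini and Hochberg. There were 2 residual degrees of freedom. Within a tissue, where there is 1 library per genotype, log2 ratios of TPM + 1 were taken with exact Clopper-Pearson 95% counting intervals (scipy 1.17.1). Intervals were computed for the ratio without the pseudocount. DESeq2 1.42.0, limma 3.58.1, other filters, scalings and pseudocounts, and leaving out each library were alternatives. The peptide genes and lists were chosen with earlier results of these data known. All peptide genes were named. From the lists, named genes were called ones, up to 5 per list and direction by size, and others named were chosen after their values were seen. Replicate libraries of a genotype within a tissue were not analysed here, so p-values measure spread between tissues and genotypes under an additive model. *Avp*, *Vip* and *Grp* were not analysed here, and planned searches of promoter and precursor sequences were not run.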

Additional observations from a re-analysis of the deposited data

Results flagged for a closer look

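*Sst*, *Penk* and *Tac1* were flagged because *duper* over wild type moved in opposite directions in SCN and in cortex, with 95% counting intervals that exclude 0 in both tissues. The log2 ratio of TPM + 1 was 0.47 in SCN and −0.29 in cortex for *Sst*. It was 0.40 in SCN and −1.63 in cortex for *Penk*, and 0.46 in SCN and −0.90 in cortex for *Tac1*. In the same cortex libraries 9 of 10 striatal markers, a list chosen after these values were seen, were lower in *duper*. Of the 10, 8 were lower by more than 0.58, against 7.75% of all genes. The median log2 ratio of these markers was −1.65 in cortex and −0.03 in SCN. Their part in the *Penk* and *Tac1* values was not tested. The difference between the tissues was not tested, since a model with an interaction of tissue and genotype would leave no residual degrees of freedom in 6 libraries.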

How the results depend on the processing

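The calls against liver kept their direction and side of the threshold under every alternative that gave a value, for all 6 peptide genes tested. *Nms* could not be fitted there without wild type SCN or with a filter of at least 10 counts in 2 libraries, which left 5 genes called. Against cortex *Nms* likewise had no value under these alternatives, and DESeq2 gave it no adjusted p. Against cortex, *Gal* and *Cck* kept their direction under all alternatives, and their calls wherever both cortex and both SCN libraries were used. When a library was left out, *Gal* lay between 3.40 and 6.34 and *Cck* between −3.88 and −3.35. No support is drawn from the kept call of *Gal*, which passed the filter on low counts only through the SCN libraries. The peptide genes called higher in SCN were 2 in place of 1, with *Nms* added, with library size in place of TMM, by the likelihood ratio test, without a filter beyond 1 count, by limma on log2(TPM + 1) and on log2(TPM + 0.1), with cortex and SCN libraries only, and with no genotype term. Those called lower were 1 in place of 2, without *Sst*, under library size and limma on log2(TPM + 0.1), and 1 to 2 when a library was left out. *Penk* against cortex turned from 0.15 to −0.038 with no genotype term, and lay between −0.84 (without *duper* SCN; −0.82 without *duper* cortex) and 1.18 when a library was left out, when *Tac1* lay between 0.05 and 1.44.

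All genes called against cortex numbered 2091, against 3394 by the likelihood ratio test, 3542 with cortex and SCN libraries only, and 215 to 1340 when a library was left out. All genes called between genotypes numbered 15, against 41 by DESeq2, 136 by the likelihood ratio test, 48 with no filter beyond 1 count, 2 and 1 by limma with pseudocounts of 1 and 0.1, 0 with no tissue term, and 0 to 43 when a library was left out. No peptide gene was called between genotypes under any of these. Uncalled genotype values that turned direction were *Gal*, at −0.0017 with no tissue term and −0.059 and −0.062 without *duper* or wild type cortex, *Sst*, at −0.040 with no tissue term and −0.29 without either SCN library, and, without *duper* or wild type cortex, *Penk* at 0.32 and 0.31 and *Tac1* at 0.45 and 0.44. With a library left out they ranged from −0.062 to 1.00 for *Gal*, −0.29 to 0.45 for *Sst*, −1.64 to 0.32 for *Penk* and −0.95 to 0.45 for *Tac1*. Within SCN, 1 peptide gene in place of 2 exceeded a log2 ratio of 1. The cause of these changes was not tested, other than the loss of samples or genes by construction. No paired analysis was possible because each combination of genotype and tissue is 1 library with no replicate number in the labels. The genotype term holds the pool of hamsters that the tissues of a genotype share, and the values with no genotype term above are those without it. Few counts limit the ratios of *Nms* in SCN (9 and 94), *Prok2* in SCN (1 and 11) and *Gal* in cortex (23 and 2), the last at 1.16 on TMM-normalised CPM and 2.81 with a pseudocount of 0.1 against 2.19.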
